A study of Mus musculus with 6 samples.

Results

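Prune2 and 2 relatives that carry the same protein domain, Bnip2 and Arhgap1, were followed in the tibialis anterior (TA) muscle of 6 mouse samples. The genes were found by symbol, 3 of the 55401 gene identifiers in the count table, and all 3 were among the 17222 genes tested. Prune2 was chosen by its rise between the groups in these same libraries, so its values are given as a description with no test. Bnip2 and Arhgap1 were taken for their kinship to Prune2 and not for how they moved.

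All 6 samples came from C57BL/6 mice of the genotype HSA-MCM-Bmal1-/-, called iMSBmal1-/- here. In these mice a Cre recombinase driven by the human skeletal actin (HSA) promoter and switched on by tamoxifen removes Bmal1, the core activator of the circadian clock, from skeletal muscle fibres. Other cell types of the muscle keep the gene. Mice were 12 to 16 weeks old at the start and were given tamoxifen at 2 mg daily over 5 days. After 4 weeks an adeno-associated virus (AAV) was injected into the TA, carrying GFP, a fluorescent protein (AAV-GFP, n = 3), or RBM20, a splicing factor that acts on titin and other muscle transcripts (AAV-RBM20, n = 3), and it was collected after a further 4 weeks. Per the study's methods the RBM20 vector used a CMV promoter and was injected at a larger dose than that of GFP, and dose and transgene cannot be told apart. No muscle with intact Bmal1 and no uninjected muscle was analysed here. The comparison asks how added RBM20 changed the transcripts of muscle lacking the clock. The labels do not say that each library came from its own animal, so p-values measure only the spread between these samples. In the study's protein blots some mice had an AAV-GFP muscle on one side and an AAV-RBM20 muscle on the other. Whether the sequenced muscles were paired in this way is not stated, and the test without a block takes them as unpaired.

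The BCH (BNIP2 and Cdc42GAP homology) domain is a branch of the CRAL-TRIO/Sec14 fold and serves as a scaffold that brings small GTPases such as Cdc42 and RhoA together with their regulators. Bnip2 is known to bind Cdc42 and the cell-surface receptor CDO in myoblasts, where it favours p38 signalling and differentiation. Arhgap1, also called Cdc42GAP or p50RhoGAP, carries a GTPase-activating domain beside its BCH domain and switches Cdc42 and RhoA off. Prune2, also called BMCC1, is a very large protein that joins a BCH domain to a region related to the phosphoesterase Prune1, and it is best known from the nervous system. The other BCH genes measured here were Bnipl, a close relative of Bnip2, Atcay (caytaxin, a neuronal adaptor for kinesin) and Arhgap8 (a GTPase-activating protein).

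In the GRCm38 annotation Prune2 (ENSMUSG00000039126) spans chr19:16956118-17223932 on the plus strand, with 20297 exonic bases in 23 merged exons. Bnip2 (ENSMUSG00000011958) spans chr9:69989466-70008317 on the plus strand, with 3455 exonic bases in 12 merged exons. Arhgap1 (ENSMUSG00000027247) spans chr2:91649860-91672326 on the plus strand, with 4275 exonic bases in 15 merged exons. The members therefore lie on 3 chromosomes and share no neighbours.

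The 250 bases upstream of the Prune2 start and of the first Bnip2 start, from RefSeq for GRCm38.p6, are shown for the 2 most abundant BCH genes. They cover chr19:16955868-16956117 and chr9:69989216-69989465, both on the plus strand. The first lies in no annotated gene, and the second lies within the antisense gene Gm28731. Capitals mark letters that matched a motif, and the Bnip2 stretch had none.
Prune2: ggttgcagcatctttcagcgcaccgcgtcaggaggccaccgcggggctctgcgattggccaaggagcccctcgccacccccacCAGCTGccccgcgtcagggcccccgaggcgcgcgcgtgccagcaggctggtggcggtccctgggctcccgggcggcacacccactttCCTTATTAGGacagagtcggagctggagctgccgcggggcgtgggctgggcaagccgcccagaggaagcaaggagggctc
Bnip2: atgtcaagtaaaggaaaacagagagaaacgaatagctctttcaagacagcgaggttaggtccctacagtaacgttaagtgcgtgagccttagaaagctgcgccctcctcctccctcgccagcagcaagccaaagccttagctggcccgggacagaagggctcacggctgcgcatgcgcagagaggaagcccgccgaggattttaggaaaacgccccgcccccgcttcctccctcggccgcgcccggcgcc
The motifs were picked with the Prune2 stretch in view. They were CACGTG, the E-box that BMAL1 and CLOCK bind; CANNTG, the wider E-box class read by myogenic factors, which includes it; the CArG box of SRF; and the MEF2 site, all searched on both strands. The Prune2 stretch held 1 CANNTG match, CAGCTG, 167 to 162 bases upstream, and 1 CArG box match, CCTTATTAGG, 80 to 71 bases upstream. For Arhgap1, whose stretch is not printed because it lies within the GENCODE bounds of the gene, the 250 bases before the first RefSeq start held 2 CANNTG matches, CATCTG and CAGGTG, and that before the second start held none. No CACGTG lay in any stretch of the 3 genes. Among 32817 mouse promoters of this length, 6.02% held CACGTG, 66.2% CANNTG, 1.47% a CArG box and 2.92% a MEF2 site. The 162 other tested genes with a CArG box upstream had a median log2 fold change of -0.016, against -0.015 over the 11104 tested genes with a promoter in the table.

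Libraries held 41400132 to 54226618 counts. Rbm20, counted together with any transcript of the vector that maps to it, was at 164 to 170 CPM (counts scaled to library size) in AAV-GFP and 406 to 545 in AAV-RBM20. Bmal1 was at 31.0 to 38.1 CPM in AAV-GFP and 24.5 to 27.6 in AAV-RBM20, which does not check the knockout without a muscle that kept the gene. The summed level of 10 muscle fibre genes was 108603 to 123536 CPM in AAV-GFP and 74264 to 115517 CPM in AAV-RBM20, which fits the labelled tissue. The groups overlapped, and AAV-RBM20 replicate 3 was lowest. Of these genes 4 had a positive and 6 a negative log2 fold change. The libraries numbered 3 stood apart in both groups, with Ttn at 4.48% and 9.05% of counts against 16.9 to 17.8% in the others, and mitochondrial transcripts at 12.5% and 11.4% against 6.41 to 7.66%. The replicate numbers are those of the sample titles. The column headers of the counts instead number the AAV-RBM20 libraries onward from those of AAV-GFP, and no label says what a number marks. Libraries of the same title number deviated together in the 2 groups (r = 0.398, 0.183 and 0.464 over genes for numbers 1, 2 and 3), so values by same-numbered pair are also given. AAV-GFP replicate 2 correlated as closely with AAV-RBM20 replicate 1 (r = 0.196), so the pairing of number 2 was no stronger than a mismatch.

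Prune2 was higher in AAV-RBM20 than in AAV-GFP muscle. It was at 112, 78.3 and 58.1 CPM in AAV-GFP replicates 1 to 3 and at 215, 185 and 201 CPM in AAV-RBM20 replicates 1 to 3. The groups did not overlap, and the AAV-GFP libraries were spread more widely than the AAV-RBM20 libraries. These levels rest on 3060 to 11742 reads per library.

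With 3 libraries a group, Prune2 averaged 82.8 ± 27.1 CPM (SD) under AAV-GFP and 200 ± 15.3 CPM (SD) under AAV-RBM20, a 2.42-fold difference. On the authors' normalised scale it was 2.39-fold. The fitted log2 fold change was 1.28 ± 0.23 (SE), and it was 1.32 ± 0.16 with the replicate number as a block. Pair by pair the log2 difference was 0.94, 1.24 and 1.79, smallest for replicate 1 and largest for replicate 3, whose AAV-GFP library had the lowest Prune2 level of all 6. Without the 2 libraries numbered 3 it was 1.08. Its fold change ranked 235 among the 17222 genes tested and 36 among the 11620 with a mean of at least 2 CPM.

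**Figure D1:**
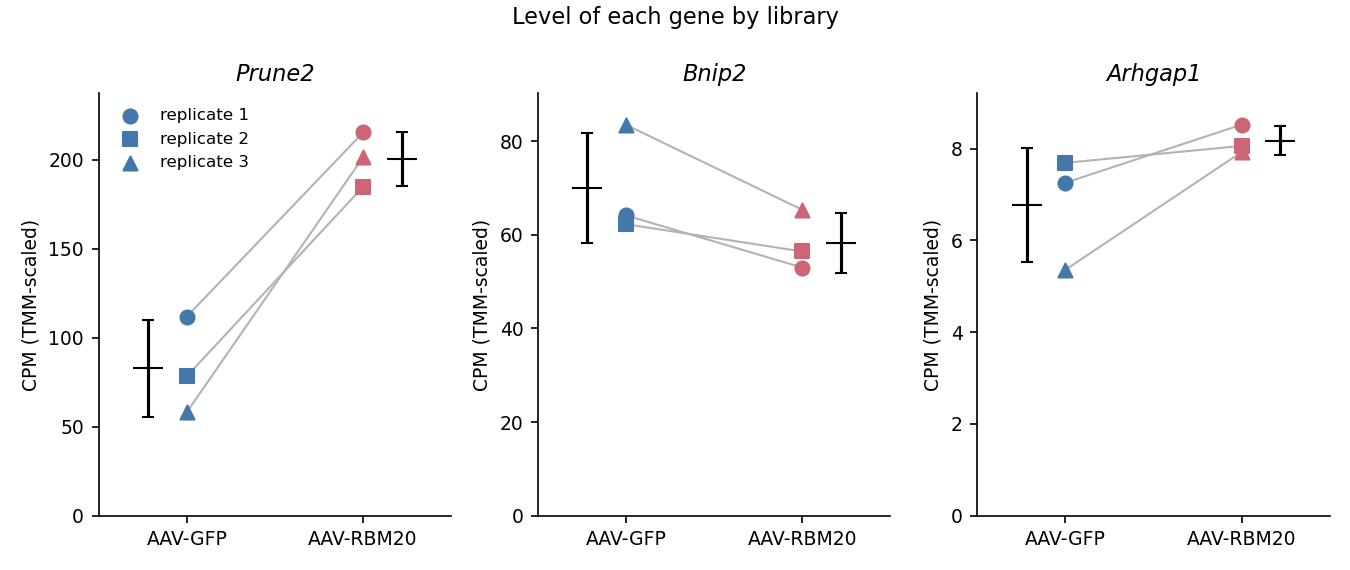
Level of Prune2, Bnip2 and Arhgap1 in CPM (counts scaled to library size by TMM) in each of the 6 libraries; marker shapes give the replicate number, grey lines join libraries of the same number, and black bars give the mean ± SD of each group (n = 3). All 3 AAV-RBM20 libraries sit above the AAV-GFP libraries for Prune2 and, by far less, for Arhgap1, while the Bnip2 groups overlap.

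Bnip2, the paralogue of Prune2, was the most abundant BCH gene per kilobase of merged exons and did not pass the test. Its level was 64.1, 62.2 and 83.5 CPM in AAV-GFP and at 53.0, 56.4 and 65.3 CPM in AAV-RBM20. The groups overlapped, with AAV-RBM20 replicate 3 above AAV-GFP replicates 1 and 2.

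Bnip2 averaged 70.0 ± 11.8 CPM (SD) over the AAV-GFP libraries and 58.2 ± 6.36 CPM (SD) over those of AAV-RBM20. The fitted log2 change was -0.26 ± 0.16 (SE), with a 95% interval of -0.63 to 0.10, and it did not pass the threshold (edgeR quasi-likelihood test, Benjamini-Hochberg adjusted p = 0.660, and 0.202 with the replicate block). An exact two-sided permutation test of its level gave p = 0.3, where 0.1 is the smallest p that 3 against 3 allow. Bnip2 was lower in 3 of 3 same-numbered pairs, as were 23% of all genes tested. Its highest value, in AAV-GFP replicate 3, carried much of the difference, and without that library the log2 fold change was -0.12. Without both libraries numbered 3 it was -0.20 ± 0.07 (SE, edgeR adjusted p = 0.122).

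Arhgap1 was expressed at a far lower level, 7.26, 7.69 and 5.36 CPM in AAV-GFP and 8.52, 8.06 and 7.93 CPM in AAV-RBM20. The groups did not overlap, but the lowest AAV-RBM20 library was only just above the highest AAV-GFP library. Counts were 282 to 465 per library.

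Arhgap1 averaged 6.77 ± 1.24 CPM (SD) over the AAV-GFP libraries and 8.17 ± 0.31 CPM (SD) over those of AAV-RBM20. The fitted log2 change was 0.27 ± 0.17 (SE), with a 95% interval of -0.12 to 0.67, and did not pass (edgeR adjusted p = 0.665, and 0.312 with the replicate block). The exact two-sided permutation p was 0.1, the smallest possible. All AAV-RBM20 libraries lay above all AAV-GFP libraries for 7.71% of the genes tested, and 22.2% were higher in 3 of 3 pairs, so neither order sets Arhgap1 apart. Without AAV-GFP replicate 3, the low library, its log2 fold change was 0.13, and without both libraries numbered 3 it was 0.16.

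Across the table, 0% of genes passed an adjusted p of 0.05 in the test without a block, where the smallest adjusted p, of Rbm20, was 0.121, and 1360 genes (7.9%) had an unadjusted p under 0.05. With the replicate block 25 genes passed, 0.145% of those tested. Prune2 was among these 25, but it was chosen by this contrast, so its place there is not a test of it. Bnip2 and Arhgap1 were not among them. Over the 17222 genes the median log2 fold change was 0.01.

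Because the genes differ in length, their levels were set against each other per kilobase of exon. The length was that of all merged exons of a gene. Which transcripts the muscle uses was not examined, and a shorter transcript would raise the level per kb. In AAV-GFP, Bnip2 was highest at 20.2 ± 3.40 CPM per kb, followed by Prune2 at 4.08 ± 1.34 and Arhgap1 at 1.58 ± 0.29 (SD, n = 3). In AAV-RBM20 the order was the same, with Bnip2 at 16.9 ± 1.84, Prune2 at 9.87 ± 0.75 and Arhgap1 at 1.91 ± 0.07 CPM per kb. No 2 neighbours in this order overlapped in any group.

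Within each library the ratio of Prune2 to Bnip2 per kb is free of library scaling. It took the values 0.297, 0.214 and 0.119 across AAV-GFP replicates 1 to 3 and 0.691, 0.557 and 0.525 across those of AAV-RBM20, and Prune2 stayed below Bnip2 throughout. Prune2 made up 21.3, 16.2 and 10.1% of the summed CPM per kb of the 6 BCH genes in the AAV-GFP libraries, against 37.7, 33.1 and 32.2% after AAV-RBM20. The share of Bnip2 was 71.7, 75.5 and 85.3% against 54.5, 59.5 and 61.4%. These shares use Prune2 and are a description. The log2 ratio of Bnip2 to Arhgap1 per kb, which does not use Prune2, was 0.55 lower in AAV-RBM20 (3.68 ± 0.51 against 3.14 ± 0.20, SD, n = 3), and an exact two-sided permutation test gave p = 0.2.

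**Figure D2:**
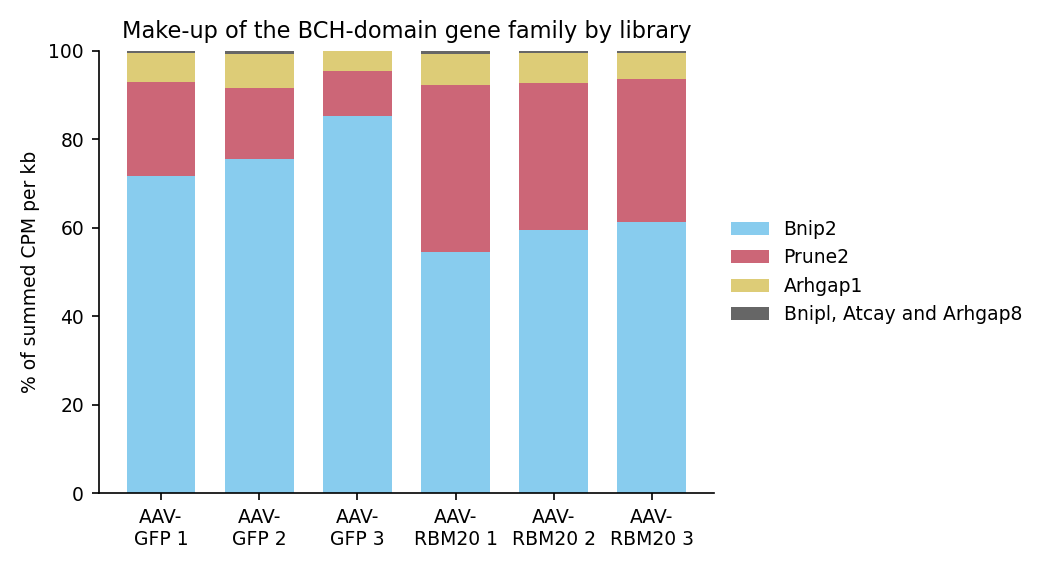
Percent of the summed CPM per kilobase of merged exons, over the 6 BCH-domain genes, taken by each gene, 1 bar per library. Bnip2 holds the largest share in every library, and Prune2 rises from 10.1 to 21.3% in AAV-GFP to 32.2 to 37.7% in AAV-RBM20.

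The other BCH genes were barely detected. In the AAV-GFP libraries Bnipl had 5, 5 and 3 counts, against 9, 3 and 5 after AAV-RBM20. Atcay had 5, 1 and 0 against 8, 0 and 3, and neither gene passed the low-count filter. Summed over each group, Bnipl was at 0.0963 CPM (95% Poisson interval 0.0513 to 0.165) and 0.119 CPM (0.0691 to 0.190), intervals that cover counting error only. Arhgap8 was tested from 6, 20 and 2 counts against 16, 15 and 12, with a log2 fold change of 0.48 ± 0.75 (SE, edgeR adjusted p = 0.862). No change could be told in these 3 genes. Bnipl and Atcay had too few counts, and Arhgap8 had low counts that ranged from 2 to 20 within AAV-GFP. Atcay shares 432 exonic bases with the antisense gene Atcayos, which had 3372 to 4965 counts, so its few counts are uncertain.

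The reads given to the members had little competition from overlapping genes. Prune2 overlaps Gm27970 and Gm27796 on the other strand without shared exonic bases, and both had 0 counts in every library. Bnip2 shares 224 exonic bases with the antisense gene Gm28731, which had 0 to 8 counts, and Arhgap1 overlaps no annotated gene. The protein-coding genes next to Prune2 were low. Foxb2, a forkhead factor, had 0 counts, and Gcnt1, a glycosyltransferase 102208 bases away, had 11 to 38 counts and a log2 fold change of 0.31 ± 0.45 (SE, edgeR adjusted p = 0.848). Beside Arhgap1, Zfp408 starts 68 bases away on the other strand and had a log2 fold change of 0.16 ± 0.21 (SE, edgeR adjusted p = 0.833). The autophagy gene Atg13 on the other side was at -0.06, and Gtf2a2, a general transcription factor gene after Bnip2, at -0.04.

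The genes that work with the BCH proteins were read from 9 lists, which together hold 114 genes with Prune2 left out. Of these, 101 were tested, and in edgeR 0 reached an adjusted p under 0.05 with or without the replicate block. At an unadjusted p under 0.05 there were 5, 3 higher and 2 lower, or 4.95% of those tested, against 7.9% of all genes. All AAV-RBM20 libraries lay above all AAV-GFP libraries for 8 genes (7.92%) and below them for 6 (5.94%), against 7.71% and 9.04% of all genes. The median log2 fold change was 0.03, and the largest in size was 0.95.

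Cdc42, the GTPase that Arhgap1 switches off and Bnip2 binds, was at 151 CPM in both groups (log2 fold change 0.00 ± 0.12, SE). Of 16 genes of the Cdc42 and RhoA family of GTPases and its inhibitors, 10 had a positive and 6 a negative log2 fold change. Rac1, which drives actin at the cell edge, was at 136, 134 and 162 CPM in AAV-GFP and 131, 131 and 126 CPM in AAV-RBM20, which do not overlap, with a log2 fold change of -0.16 ± 0.13 (SE, edgeR adjusted p = 0.730). Rhoq, a Cdc42-like GTPase, was at 0.05.

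Among 20 other GTPase-activating genes, 16 had a positive log2 fold change and none passed. Arhgap5, Arhgap10 and Arhgap35, the most abundant, were all on the negative side, at -0.28, -0.23 and -0.21. Arhgap42 and Srgap3 had an unadjusted p under 0.05, at 0.34 ± 0.14 and 0.93 ± 0.31 (SE, edgeR adjusted p = 0.618 for both). Srgap3 was at 3.03, 2.71 and 1.82 CPM in AAV-GFP and 5.94, 2.96 and 5.44 CPM in AAV-RBM20, and these overlapped.

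Of 15 tested genes that activate or answer RhoA, 8 had a positive and 7 a negative log2 fold change. Akap13, Arhgef12 and Rock2, the most abundant, were at 0.23, 0.05 and -0.23. Arhgef2, a RhoA activator that binds microtubules, was at 34.9, 32.1 and 22.7 CPM against 42.4, 38.6 and 41.7 CPM, and Srf, the factor that binds the CArG box, was at 59.7, 61.9 and 84.6 CPM against 52.0, 54.9 and 48.5 CPM. Neither overlapped between the groups, but with log2 fold changes of 0.45 ± 0.17 and -0.41 ± 0.16 (SE) neither passed (edgeR adjusted p = 0.618 for both). The highest Srf level was in AAV-GFP replicate 3, the library with the most Bnip2 and the least Prune2. Arhgef2, Srf, Srgap3 and Arhgap42, and Rnd3 and Arhgap6 named next, were singled out after their values were seen.

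The myogenic partners of Bnip2, CDO with its p38 and MEF2 branch, had 9 positive and 8 negative log2 fold changes. Ctnnb1, Spag9 and Mef2c, the most abundant, were at -0.06, -0.09 and -0.10. Cdh15, the muscle cadherin that joins CDO at cell contacts, was at 22.9, 21.6 and 20.4 CPM in AAV-GFP and 17.3, 16.4 and 12.5 CPM in AAV-RBM20. These did not overlap, with a log2 fold change of -0.49 ± 0.15 (SE), but it did not pass (edgeR adjusted p = 0.618, and 0.103 with the replicate block). Without the 2 libraries numbered 3, Cdh15 passed at -0.39, as did the atypical GTPase Rnd3 at 0.64 and Arhgap6 at 0.55. These 3 were 2.97% of the 101, where 4% of all genes passed in the same fit, so the partners were not called more often than other genes.

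Prune1, the phosphoesterase that Prune2 is named after, averaged 81.9 ± 5.09 CPM in AAV-GFP and 80.7 ± 13.8 CPM in AAV-RBM20 (SD, n = 3), with a log2 fold change of -0.02 ± 0.16 (SE). Its partners Gsk3b and Nme1 were at -0.15 and -0.17. Of the 12 tested genes with another CRAL-TRIO/Sec14 domain, 7 had a positive log2 fold change, and Trio, Nf1 and Sec14l5, the most abundant, were at 0.03, 0.16 and 0.00. The Bcl2 and Bnip genes, cell death and mitophagy genes without a BCH domain that share the Bnip name or its E1B-binding partners, had 1 positive and 6 negative values, with Bnip3, Bnip3l and Mcl1 at -0.12, -0.16 and 0.03. Of the kinesin-1 genes, whose motor Atcay binds, Kif5b and Klc1 were at -0.16 and 0.11.

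**Figure D3:**
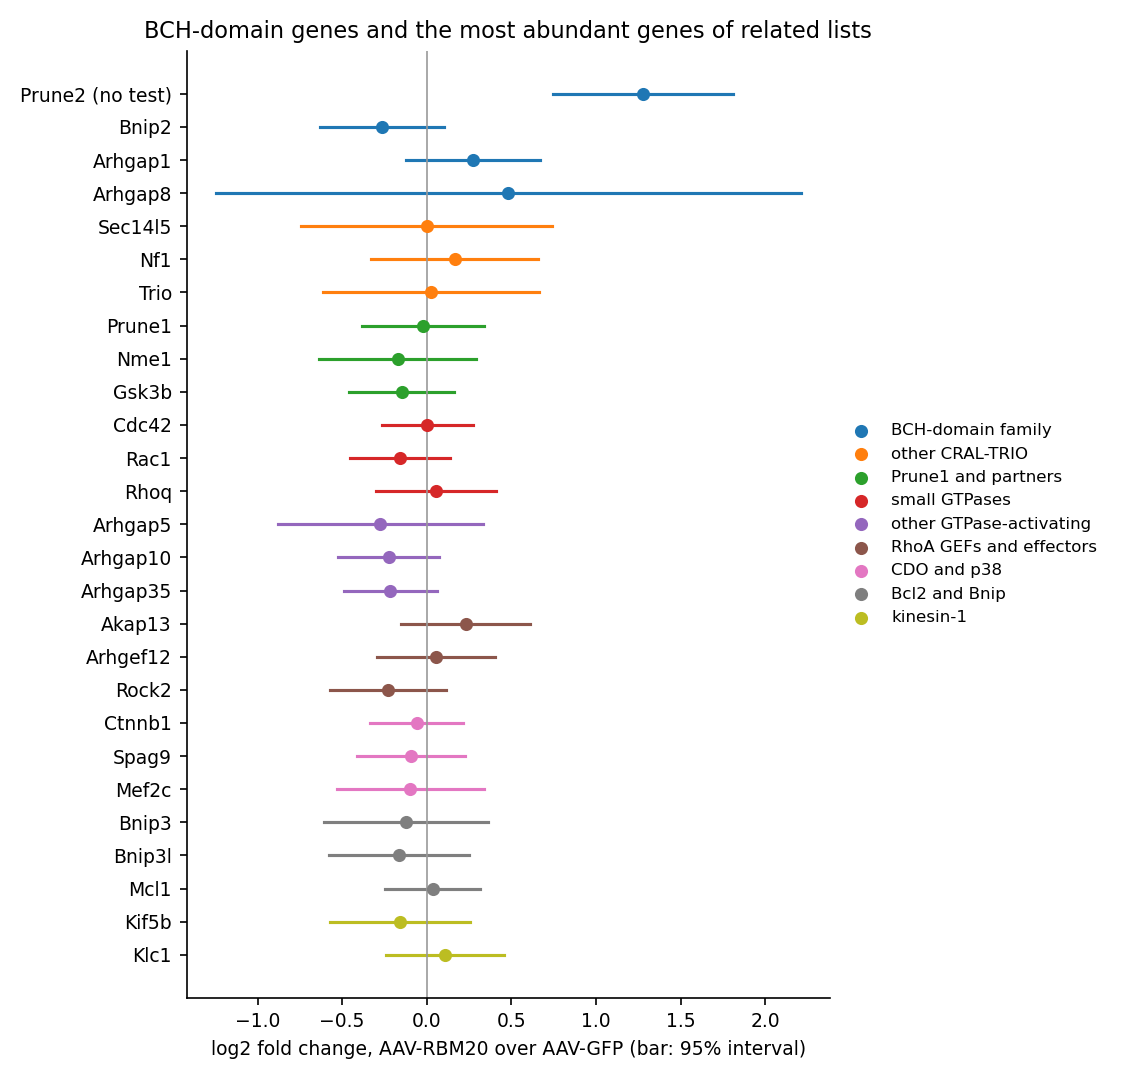
Log2 fold change of AAV-RBM20 over AAV-GFP with its 95% interval for the tested BCH genes and the most abundant genes of each related list (3 a list, 2 for kinesin-1), coloured by list. Prune2, chosen by this contrast, sits at 1.28 and is shown without a test. Its interval is a description only, since the choice favoured a value away from 0. The intervals of all the other genes drawn include 0.

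TA muscle holds vessels, nerve and connective tissue beside its fibres, and in whole muscle more cells of a type and more RNA per cell cannot be told apart. The summed level of 10 smooth muscle and pericyte genes was 687 to 703 CPM in AAV-GFP and 678 to 703 CPM in AAV-RBM20. That of 10 Schwann cell genes was 28.8 to 57.6 CPM and 40.98 to 56.3 CPM. The 9 neuronal genes summed to 1.11 to 2.80 CPM and 1.17 to 2.53 CPM. The groups overlapped in all 3 sums. No listed marker was at 0 in every library, and Stmn2 held most of the neuronal sum.

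The summed levels of macrophage and of fibroblast genes were higher in AAV-RBM20 within each same-numbered pair. All 10 macrophage genes had a positive log2 fold change (median 0.80), and their sum was 34.4, 32.1 and 114 CPM in AAV-GFP and 81.8, 73.1 and 165 CPM in AAV-RBM20. All 7 fibroblast genes were likewise positive (median 0.52), with sums of 673, 634 and 1300 CPM against 1261, 1042 and 1446 CPM. Gene by gene, the 10 macrophage genes were higher in 3 of 3 pairs, but of the 7 fibroblast genes only Col1a1 and Col1a2 were. Over all genes tested, 22.2% were higher in 3 of 3 pairs. Col3a1 went from 406 to 349 CPM in the pair numbered 3. In both lists replicate 3, which stood apart in both groups, had the highest sum of its group. Prune2 was also higher in AAV-RBM20 in each pair, and its lowest level was in AAV-GFP replicate 3. With the replicate block Ccr2 passed among the macrophage genes (edgeR adjusted p = 0.025) and 0 of the fibroblast genes did, where 0.145% of all genes passed. Without the block 0 of either list passed. Endothelial genes summed to 178 to 440 CPM and 278 to 407 CPM, and satellite cell genes to 25.4 to 29.2 CPM and 17.7 to 26.3 CPM. Most of the satellite sum was Cdh15, described above, and the other markers Pax7, Myf5 and Calcr had log2 fold changes of 0.34, 0.15 and 0.18.

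Among genes of denervated or regenerating fibres, of 13 tested, 8 had a positive and 5 a negative log2 fold change. At an unadjusted p under 0.05, 5 were higher and 1, Myod1, lower, where 7.9% of all genes tested reached that p in either direction. Myod1, Chrnb1 and Musk, the most abundant, were at -0.32, -0.05 and -0.39. Runx1 was the only one to pass, with the block, where 0.145% of all genes passed. It was at 5.58 CPM in AAV-GFP against 13.3 CPM in AAV-RBM20 (log2 fold change 1.25 ± 0.15 SE, edgeR adjusted p = 0.027 with the block, and 0.257 without it). The embryonic and perinatal myosins Myh3 and Myh8, singled out after their values were seen, had log2 fold changes of 2.00 ± 0.59 and 2.00 ± 0.47 (SE) and did not pass. AAV-RBM20 replicate 1 was the high library for both, with Myh3 at 8.38 CPM against 2.54 and 1.87 CPM in replicates 2 and 3, and Myh8 at 10.4 CPM against 3.98 and 3.81 CPM. The part of the macrophage, fibroblast and regeneration genes in the Prune2 values was not tested.

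Across the 6 libraries, the genes whose log2 CPM ran most like that of Prune2, among 11508 with enough signal, were Lrrk2 (Pearson r = 0.996), Gm6225 (0.995), Grb14 (0.993), Dync2h1 (0.990) and Lyn (0.990). These are correlations over 6 points that share the 2 groups, and they are given as a description. The fold changes of these genes were smaller than that of Prune2. Lrrk2, a large kinase, was at 22.1, 20.01 and 17.8 CPM in AAV-GFP and 29.4, 27.5 and 27.5 CPM in AAV-RBM20, a log2 fold change of 0.50 ± 0.13 (SE), and Grb14, an adaptor that dampens the insulin receptor, was at 0.57 ± 0.13.

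Once the group means were taken out, the genes that ran most like Prune2 were Acot7 (r = 0.998), Vwa3b (0.996), Pfkfb1 (0.994), Tnfrsf19 (0.993) and Ankfy1 (0.993). Like Prune2, all 5 were highest in replicate 1 and lowest in replicate 3 of AAV-GFP. On the log2 CPM scale, with the group means kept in, Prune2 gave r = 0.911 with Rbm20, 0.825 with Arhgap1, -0.776 with Bnip2 and 0.006 with Prune1. These r values hold the group difference by which Prune2 was chosen, so they are a description only.

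**Figure D4:**
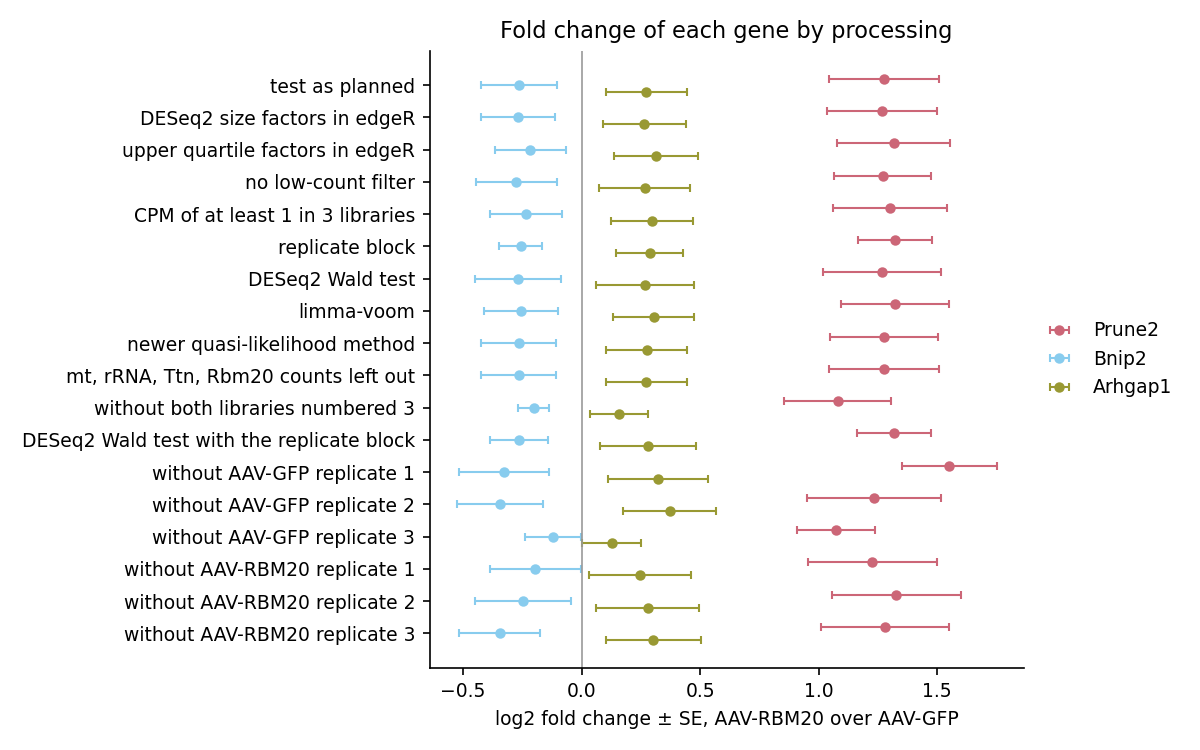
Log2 fold change ± SE of Prune2, Bnip2 and Arhgap1 for the test as planned and each alternative, including each library left out. Prune2 stays between 1.07 and 1.55, Bnip2 between -0.35 and -0.12 and Arhgap1 between 0.13 and 0.37, so the 3 genes keep their order and signs in every setting drawn.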

How the data were processed

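RNA of TA muscle was sequenced as stranded, ribosomal RNA-depleted libraries. The authors mapped reads to mm10 with HISAT2, counted them per gene with HTSeq and used DESeq2; versions, annotation release and the strand setting of the counting are not given in the sources used here. The deposited counts are raw. A second deposited table, a normalised signal, holds the authors' counts divided by 1 constant per library and served only for a fold of Prune2. Symbols, positions and exon lengths came from GENCODE M21 (55141 of 55401 identifiers matched).

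Counts were fitted across 17222 genes (filterByExpr, TMM) by edgeR 4.0.16 (quasi-likelihood, R 4.3.3), with Benjamini-Hochberg adjustment at 0.05, and the procedure was tested on simulated counts. CPM are TMM-scaled, and 0.5 was added to counts before log2 in correlations. Alternatives were other scalings and filters, the replicate number as a block, limma 3.58.1 (voom), DESeq2 1.42.0, and leaving libraries out. Same-numbered libraries deviated together for all 3 numbers (r above 0.1), so the block is given beside results. The members, gene lists and motifs were chosen with earlier results of these data known. Named genes were all BCH genes, the 3 most abundant of each list plus any called, the neighbours, the 5 most like Prune2 by each measure, and Rbm20, Ttn and Bmal1. One gene the rule names is not reported here. Replicates were compared for copies (chi-square per degree of freedom 15.1 to 545) and none was found.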

Additional observations from a re-analysis of the deposited data

How the results depend on the processing

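Prune2, Bnip2 and Arhgap1 kept their direction in the 17 alternatives run, and Bnip2 and Arhgap1 passed in none of them (adjusted p from 0.122 to 0.988 and from 0.312 to 0.988). Leaving out 1 library at a time gave 1.07 to 1.55 for Prune2, -0.35 to -0.12 for Bnip2 and 0.13 to 0.37 for Arhgap1. Genes below an adjusted p of 0.05, 0 in edgeR as planned, numbered 8 without the low-count filter, 25 with the replicate block (15 higher, 10 lower), 75 in DESeq2 (36 higher, 39 lower) and 690 (337 higher, 353 lower) without the 2 libraries numbered 3. They numbered 513 in DESeq2 with the replicate block, an alternative chosen after seeing the data, and 0 in the others, each single library left out included. Among the 101 relatives and partners, the count of 0 became 3 without the libraries numbered 3 and 1, Cdh15, in DESeq2 with the replicate block. The cause was not tested. In edgeR the replicate block changed no call of Bnip2, Arhgap1 or the partners. Depth limits Bnipl and Atcay, since 3 counts correspond to 0.0550 to 0.0746 CPM. Arhgap8 is limited by low counts and by the spread between its AAV-GFP libraries.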
